A study of Mus musculus with 2 samples.

Results

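The genes described here are Hmgcs1, Sqle, Fdft1, Insig1, Idi1, Mvd, Lss and Dhcr7, 7 enzymes of cholesterol synthesis and 1 regulator of that pathway, taken by symbol as 8 of the 32285 gene rows of the deposited count matrices. The cells were E14 mouse embryonic stem cells of 129/Ola background, grown on gelatin in medium with serum and leukemia inhibitory factor. They were transfected by Lipofectamine with a control siRNA (the library called control) or with a Son siRNA (sonKD). They were collected 1 day later, frozen, thawed, sorted for viable cells with 7-AAD, and profiled by droplet single-cell RNA sequencing of transcript 3′ ends. Son encodes a large protein of nuclear speckles that takes part in splicing. There was 1 library of each kind, so no test between them was possible, and a difference made by the knockdown cannot be told apart from one between the libraries.

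Cells make cholesterol from acetyl-CoA through mevalonate, isoprenoid diphosphates, squalene and lanosterol. Transcription of the enzymes is driven mainly by SREBP-2, a membrane-bound factor that its escort SCAP carries from the endoplasmic reticulum to the Golgi for cleavage when membrane sterol is low. INSIG proteins hold SCAP back when sterol is plentiful, and Insig1 is itself an SREBP target, which closes a feedback loop.

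SREBP factors bind sterol regulatory elements in promoters, usually beside sites for NF-Y, which binds the CCAAT box. The promoter table from RefSeq (build GRCm38.p6) held 6 of the 8 genes. The 250 bases before the start of each entry were searched on both strands for TCACNCCAC, a core form of the sterol regulatory element, and for CCAAT, which reads ATTGG on the opposite strand; the 2 motifs share no match. Below are the windows of Hmgcs1, the only one of these genes with a match to TCACNCCAC, and of the regulator Insig1. The others are those of Idi1, which had the highest Pearson r with Hmgcs1 over cells, and of Dhcr7, with the lowest ratio between the libraries. All 4 lie on the plus strand, and capitals mark matches to either motif.
Hmgcs1, chr13:119690101-119690350: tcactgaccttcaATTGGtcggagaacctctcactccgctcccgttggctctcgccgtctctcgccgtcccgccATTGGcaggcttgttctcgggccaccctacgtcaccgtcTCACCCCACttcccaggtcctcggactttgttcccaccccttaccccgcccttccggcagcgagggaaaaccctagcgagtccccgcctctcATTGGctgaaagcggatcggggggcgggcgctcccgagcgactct
Idi1, chr13:8885356-8885605: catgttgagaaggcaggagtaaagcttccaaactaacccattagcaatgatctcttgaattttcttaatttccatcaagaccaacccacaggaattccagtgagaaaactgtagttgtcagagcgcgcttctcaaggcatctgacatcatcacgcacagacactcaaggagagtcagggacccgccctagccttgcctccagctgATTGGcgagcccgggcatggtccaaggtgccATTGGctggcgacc
Insig1, chr5:28071162-28071411: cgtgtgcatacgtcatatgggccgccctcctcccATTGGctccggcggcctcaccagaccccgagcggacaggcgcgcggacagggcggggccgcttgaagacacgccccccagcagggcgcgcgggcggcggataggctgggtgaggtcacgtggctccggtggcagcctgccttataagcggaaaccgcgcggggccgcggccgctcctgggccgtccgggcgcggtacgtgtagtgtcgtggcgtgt
Dhcr7, the last of its 3 listed starts, chr7:143829964-143830213: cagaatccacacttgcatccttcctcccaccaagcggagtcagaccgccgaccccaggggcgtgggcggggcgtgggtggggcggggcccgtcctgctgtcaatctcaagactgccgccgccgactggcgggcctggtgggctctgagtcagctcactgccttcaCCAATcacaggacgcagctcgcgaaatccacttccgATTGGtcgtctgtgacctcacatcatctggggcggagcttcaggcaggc
In Hmgcs1 the match TCACCCCAC began 137 bases before the start, and ATTGG lay at 237, 176 and 45 bases. Only 1.05% of all 32851 windows of this length held TCACNCCAC. CCAAT in either direction was found in all 6 genes with an entry, and 4 of them had at least 2 matches (Hmgcs1, Idi1, Mvd and Dhcr7). In Dhcr7 they lay only in the window printed, and the windows of its other 2 starts held none. Among 27025 genes in the table, 37.5% had a match to CCAAT and 11.5% had at least 2. Of the other cholesterol synthesis enzymes, 11 of the 12 with an entry had a match to CCAAT and 0 had a match to TCACNCCAC. A match describes the letters in the window and is not a measured binding site.

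Cells were barcodes with at least 2500 UMIs (counted molecules), at least 1000 genes and at most 10% of UMIs from mitochondrial genes. The control library held 4978 such cells and 40902904 UMIs in them, and the sonKD library 2731 cells and 32032551 UMIs. The median cell had 7737.5 UMIs in control and 11612 in sonKD, and 2 cell barcodes occurred in both libraries. Among barcodes that passed the other limits, 11.2% were over the mitochondrial limit in control and 27.9% in sonKD. Ribosomal protein genes took 20.7% of cell UMIs in control and 24.1% in sonKD. Son itself stood at 169 CPM (a gene's UMIs scaled to the library's total in cells) in control and 106 in sonKD, which is 62.7% of control. All 7 embryonic stem cell markers were above 10 CPM in both libraries, with a summed level of 8025 CPM in control and 8788 in sonKD. The 7 fibroblast markers summed to 3.18 and 3.65 CPM, with Col3a1, Postn and Lum at 0 in both libraries, and the 5 hepatocyte markers to 0.196 and 0.406 CPM, with Alb, Ttr and Cyp7a1 at 0.

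All 8 sterol genes were detected in stem cells of both libraries. Together they made up 436 CPM in control (95% interval 429 to 442, 17823 UMIs) and 374 CPM in sonKD (368 to 381, 11992 UMIs). Every interval given with a level or a ratio is an exact one that covers counting error only, and says nothing of how cultures differ. The sonKD level of the sum was 85.9% of control (83.9 to 87.9%), a log2 ratio of -0.22. Each of the 8 genes was lower in sonKD on this scale, by amounts that ran from a log2 ratio of -0.10 in Fdft1 to -0.55 in Dhcr7.

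**Figure D1:**
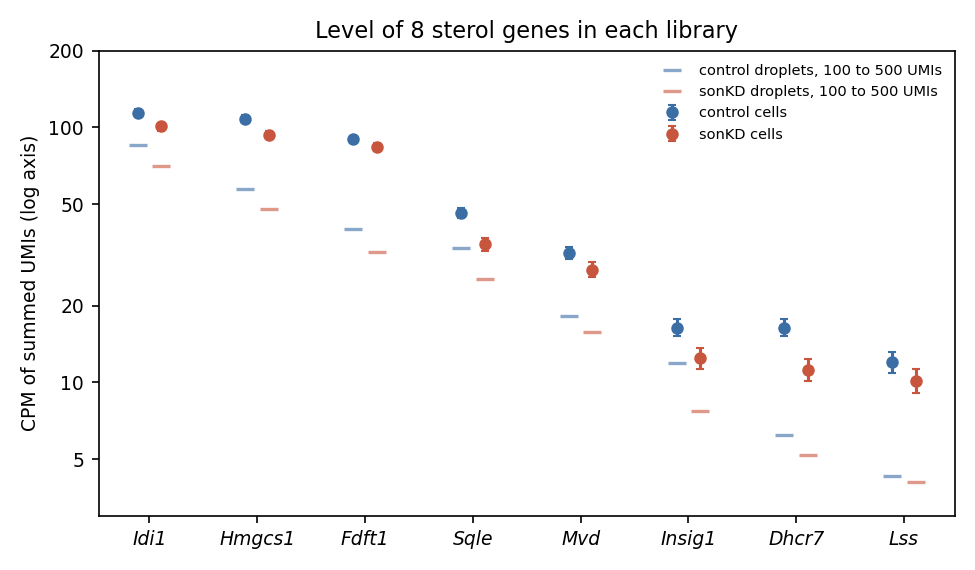
Level of each sterol gene in cells (points, with exact 95% Poisson bars) and in droplets of 100 to 500 UMIs (dashes), in CPM on a log axis, for control (blue) and sonKD (red). Idi1, Hmgcs1 and Fdft1 stood near 100 CPM and Insig1, Dhcr7 and Lss between 10.1 and 16.4 CPM, with the control point above the sonKD point in each gene.

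Hmgcs1, Mvd and Idi1 act before the isoprenoid diphosphates are joined. Hmgcs1, the cytosolic HMG-CoA synthase, which joins acetyl-CoA to acetoacetyl-CoA, stood at 108 CPM in control (105 to 112) and 93.7 in sonKD (90.4 to 97.1). The log2 ratio was -0.21 (-0.28 to -0.14), and the 2 intervals of the level did not overlap. Mvd, the decarboxylase that turns mevalonate diphosphate into isopentenyl diphosphate, stood at 32.3 CPM in control (30.6 to 34.1) and 27.7 in sonKD (25.9 to 29.6). Its log2 ratio of -0.22 (-0.34 to -0.10) was close to that of Hmgcs1, although its level was lower. Idi1, the isomerase that makes dimethylallyl diphosphate from isopentenyl diphosphate, had the highest level of the 8 in both libraries, with 114 CPM in control (111 to 118) and 101 in sonKD (97.3 to 104). Its log2 ratio was -0.18 (-0.25 to -0.12), so these 3 enzymes differed between the libraries by similar amounts, with overlapping intervals.

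The enzymes around squalene were less alike. Fdft1, squalene synthase, which commits farnesyl diphosphate to sterols, stood at 89.9 CPM in control (87.1 to 92.9) and 83.6 in sonKD (80.5 to 86.9). Its log2 ratio of -0.10 (-0.18 to -0.03) was the one nearest to 0 among the 8. Sqle, squalene epoxidase, an oxygen-dependent step that limits the flow to cholesterol, stood at 46.3 CPM in control (44.2 to 48.4) and 34.8 in sonKD (32.8 to 36.9). That is 75.2% of control (69.8 to 81.0%), a log2 ratio of -0.41 (-0.52 to -0.30), and its interval lay below that of Fdft1. Lss, lanosterol synthase, which closes the sterol rings, had the lowest level, 12 CPM in control (10.9 to 13.1) and 10.1 in sonKD (9.07 to 11.3). With 489 and 325 UMIs its log2 ratio of -0.24 had a wide interval (-0.44 to -0.03), and the intervals of its level overlapped.

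The gene with the lowest ratio acts last. Dhcr7 encodes the reductase that turns dehydrocholesterol into cholesterol. It stood at 16.4 CPM in control (15.2 to 17.7) and 11.2 in sonKD (10.1 to 12.4), on 670 and 359 UMIs. That is 68.4% of control, with an upper limit of 77.9%, and a log2 ratio of -0.55 (-0.74 to -0.36). Insig1, the regulator that retains SCAP, had the same control level of 16.4 CPM (15.2 to 17.7) and stood at 12.5 CPM in sonKD (11.3 to 13.7). Its sonKD level was 75.9% of control (66.9 to 86.1%), a log2 ratio of -0.40 (-0.58 to -0.22), an interval that overlapped that of Dhcr7.

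In order of level the genes ran Idi1, Hmgcs1, Fdft1, Sqle, Mvd, then Insig1 with Dhcr7, then Lss. UMIs count molecules from the 3′ end, so these levels were not divided by gene length. Idi1 and Hmgcs1 overlapped in control (111 to 118 against 105 to 112 CPM) and were apart by a small margin in sonKD. Insig1 and Dhcr7 could not be ordered in either library, and in sonKD Lss overlapped Dhcr7 as well. The other neighbours differed beyond their counting intervals in both libraries.

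The 8 genes were set beside the 8063 genes that averaged 10 CPM or more in these libraries, whose log2 ratios had a median of -0.12. Of those genes 74.9% had a log2 ratio below 0, so the shared direction of the 8 is also that of most genes. At or below 80% of control were 3 of the 8, Sqle, Insig1 and Dhcr7, and 0 were at or above 125%. Over all genes 10.2% were at or below 80% of control and 3.5% at or above 125%. Among the 8, only in Dhcr7 did the whole interval lie below 80%. The median of the 8 log2 ratios was -0.23. 7 of the 8 were below the median of all genes, and in 5 the whole interval was. The share of all genes with the whole interval below it was not counted, and intervals are narrower in genes with more UMIs. Dhcr7 lay at percentile 1.55 of all genes, Sqle at 4.6 and Insig1 at 5.21, while the other 5 lay between percentiles 22.3 (Lss) and 53.0 (Fdft1).

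The size of these ratios depended on the scaling. With TMM factors the log2 ratio of the sum was -0.13 and 1 gene, Dhcr7, was at or below 80% of control, against 4.59% of all genes, with 5.57% at or above 125%. Sqle and Insig1 then lay just above the limit of 80%. With all genes but the mitochondrial and ribosomal protein genes as the total, the log2 ratio of the sum was -0.145 and 3 of the 8 were at or below 80% of control, against 5.54% of all genes, with 4.7% at or above 125%. All 8 values stayed below 0 under both scalings, where 56.6% and 60.2% of all genes were below 0, but the intervals of Fdft1 and Lss then included 0. Without any scaling the direction was the opposite one for 7 of the 8: a sonKD cell held 1.24 times as many Hmgcs1 UMIs as a control cell, 1.33 times as many Fdft1 UMIs and 0.977 times as many Dhcr7 UMIs, while the UMIs of all genes per cell stood at 1.43 times control. Fewer transcripts of these genes and more RNA of others per cell cannot be told apart by CPM. UMIs per cell also depend on sequencing depth and capture, which were not measured apart from the RNA content of cells.

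Before depth was made equal, Idi1 was detected in 55.0% of control cells and 62.1% of sonKD cells, and Hmgcs1 in 53.3% and 59.0%. Sqle, at 30.4% and 31.3%, Insig1, at 12.4% and 13.3%, and Dhcr7, at 12.3% and 12.1%, differed less. After each cell was thinned to 4000 UMIs, which left 4710 control and 2622 sonKD cells and left out 268 and 109 shallower ones, Idi1 was detected in 35.8% of the control cells (interval 34.4 to 37.2%) against 31.2% in sonKD (29.4 to 33.0%). At equal depth all 8 shares were lower in sonKD, as the CPM were. Sqle was detected in 16.9% (15.8 to 18.0%) and 12.9% (11.6 to 14.2%) of thinned cells, and Dhcr7 in 6.09% (5.43 to 6.81%) and 4.50% (3.74 to 5.37%). The intervals were apart for 5 of the 8 and overlapped for Fdft1 (28 to 30.6% against 25.0 to 28.4%), Insig1 (5.95 to 7.39% against 4.58 to 6.35%) and Lss (3.95 to 5.16% against 2.84 to 4.29%). Detection at equal depth was not compared over all genes, so these counts have no share of all genes beside them. By CPM 74.9% of all genes were lower in sonKD. At least 1 of the 8 genes was detected in 78.6% of thinned control cells and 73.1% of thinned sonKD cells. Free RNA can give such UMIs too, and no cell type that lacks these genes was at hand as a floor. In droplets of 100 to 500 UMIs, most of them without a cell, the 8 genes summed to 257 CPM in control and 209 in sonKD. That is 0.59 and 0.56 times their level in cells, from 0.36 for Lss to 0.747 for Idi1 in control, so the sterol genes had lower levels outside cells and the same order between libraries. In barcodes over the mitochondrial limit the sum stood at 363 CPM in control (337 to 391) and 334 in sonKD (315 to 353), and these intervals overlapped. There the log2 ratio was above 0 in Mvd, 0.63 (-0.01 to 1.31), and Insig1, 0.22 (-0.46 to 0.94). It was below 0 in the others, with Dhcr7 at -0.02 (-0.66 to 0.64), and the interval of every gene included 0.

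Of the 15 other enzymes of the pathway, 14 averaged 10 CPM or more. All 14 had a log2 ratio below 0, as had 74.9% of all genes, and their median was -0.20. At or below 80% of control was 1 of the 14, where 10.2% of all genes were. That gene was Cyp51, lanosterol demethylase, with 69.7 CPM in control (67.1 to 72.3) and 55.4 in sonKD (52.9 to 58.1), a log2 ratio of -0.33. Fdps, farnesyl diphosphate synthase, was the most abundant with 199 and 174 CPM and had a log2 ratio of -0.19. The methyl sterol enzymes Msmo1 and Nsdhl had log2 ratios of -0.26 and -0.31. Nearest to 0 were Lbr, which has both a sterol reductase and a lamin-binding role, at -0.06, and the isomerase Ebp at -0.04 (-0.13 to 0.06). Tm7sf2, a sterol reductase under the minimum of 10 CPM, stood at 8.39 CPM in control (7.52 to 9.32) and 5.03 in sonKD (4.28 to 5.87). Its log2 ratio of -0.74 (-1.02 to -0.46) was lower than that of any of the 14. Under TMM scaling 12 of the 14 were below 0 and their median was -0.11, beside 56.6% of all genes below 0 and a median of all genes of -0.03.

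**Figure D2:**
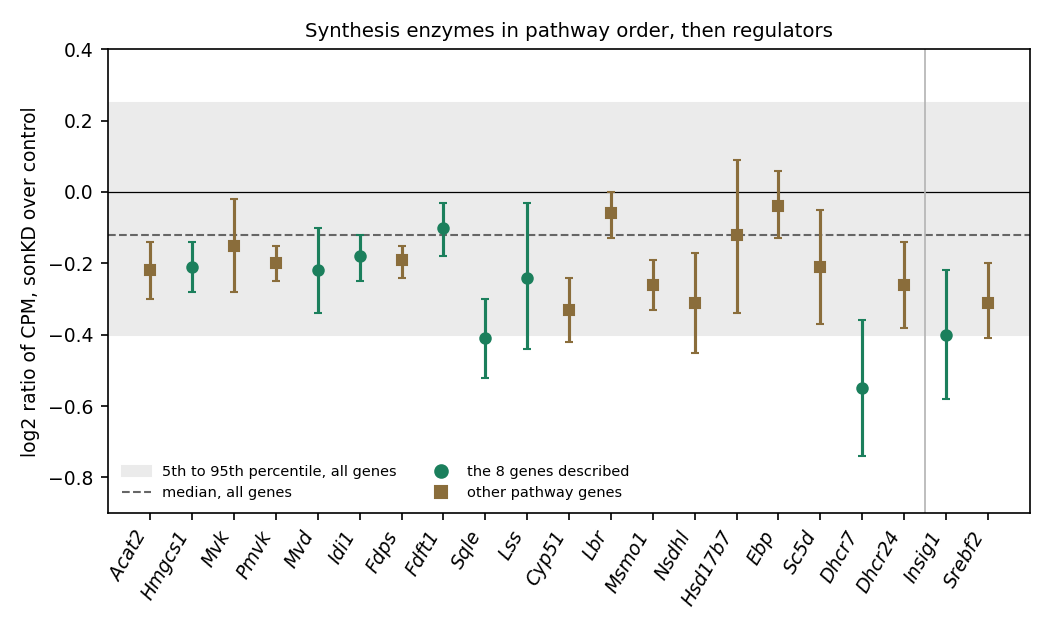
Log2 ratio of CPM, sonKD over control, for cholesterol synthesis enzymes in approximate pathway order and, right of the line, Insig1 and Srebf2, with exact 95% counting intervals; circles are the 8 genes and squares other pathway genes, over the median (dashed, -0.12) and the 5th to 95th percentile (grey, -0.40 to 0.25) of all genes. Sqle and Dhcr7 lie below the grey band, and Ebp and Lbr lie nearest to 0.

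Among 11 genes of SREBP control and LDL uptake that averaged 10 CPM or more, 10 had a log2 ratio below 0, as had 74.9% of all genes. Their median was -0.15 beside -0.12 for all genes, and 7 of the 11 were below that median of all genes. Under TMM scaling 8 of the 11 were below 0, beside 56.6% of all genes. Their median was then -0.06, beside -0.03 for all genes. Srebf2, which encodes SREBP-2, had 47.0 CPM in control and 38.0 in sonKD, a log2 ratio of -0.31 (-0.41 to -0.20). Insig2, the paralog of Insig1, had -0.11 (-0.24 to 0.02), an interval that overlapped that of Insig1 by a small margin. Mylip, a ubiquitin ligase that acts in sterol control, had the highest ratio, 0.27 (0.05 to 0.48), with 9.14 CPM in control and 11 in sonKD. Scap, at 10.6 and 9.05 CPM, and Srebf1, at 6.23 and 5.65, were under the minimum of 10 CPM.

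The enzymes of fatty acid synthesis, several of them SREBP targets as well, had a median log2 ratio of -0.35 over 10 genes, and 5 were at or below 80% of control, where 10.2% of all genes were. The 2 farthest from 0 were the desaturase Fads2, with 14.4 and 8.02 CPM and a log2 ratio of -0.84, and fatty acid synthase Fasn, with 52.9 and 31.7 CPM and -0.74. The lists of sterol export and esterification and of isoprenoid branches lay nearer to the median of all genes. In sterol export and esterification the median over 5 genes was -0.07, with Soat1, which esterifies cholesterol, at 0.28 and the transporter Abca1 at -0.25. In the isoprenoid branches the median over 10 genes was -0.15, and 0 of them were at or below 80% of control. Fdps and Ggps1 are in this list and also among the other cholesterol synthesis enzymes, so those lists overlap.

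Over single cells the 8 genes varied together only weakly. In cells thinned to 4000 UMIs the mean Pearson r of log2(UMI + 1) over the 28 pairs was 0.0248 in control and 0.0238 in sonKD. 25 pairs in control and 24 in sonKD were above 0, 22 of them in both, and none exceeded 0.1. Pairs of other genes of like level were not counted, so how many of 28 such pairs would be above 0 is not known. All values of a library share its cells, the thinned depth and counts mostly of 0 and 1, so a single weak r is not a finding. The highest pair was the same in both libraries, Hmgcs1 with Idi1, at 0.0836 in control and 0.0784 in sonKD. Both genes were detected in 633 control cells, 13.4% where independent detection would give 11.9%, and in 280 sonKD cells, 10.7% where it would give 9.36%. The lowest were Lss with Dhcr7 in control (-0.0125, 9 cells with both) and Sqle with Lss in sonKD (-0.0169, 8 cells with both).

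**Figure D3:**
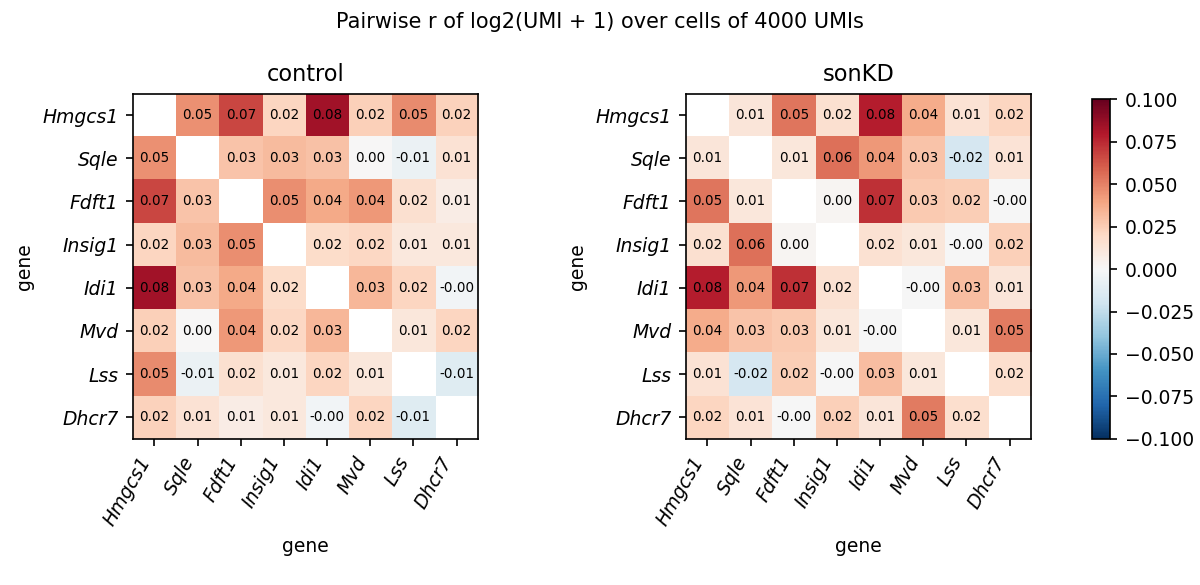
Pearson r of log2(UMI + 1) for each of the 28 pairs of sterol genes over cells thinned to 4000 UMIs, in control (4710 cells) and sonKD (2622 cells), as colour and number. Hmgcs1 with Idi1 is the highest pair in both panels, and no pair exceeds 0.1.

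The summed UMIs of the 8 genes spread more widely than independent counts would. A thinned control cell held 1.77 ± 1.52 UMIs of the 8 genes (SD over cells) and a sonKD cell 1.49 ± 1.40. The variance of the sum was 1.31 times its mean in both libraries, where the members' own variances added up to 1.09 times the mean in control and 1.11 in sonKD. The excess over those 2 values is the covariance between the genes. None of the 8 was seen in 21.4% of control cells and 26.9% of sonKD cells, and the highest cells held 11 and 10 UMIs. No separate group of cells rich in these transcripts was looked for.

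Each gene was higher where the other 7 were. Hmgcs1 stood at 91.5 CPM (86.2 to 97.2) in control cells with at most 1 UMI of the other 7 genes and at 140 CPM (127 to 154) in those with at least 3. In sonKD the same groups had 84.3 (77.8 to 91.2) and 129 CPM (110 to 150). Idi1 went from 107 to 153 CPM in control and from 88.7 to 136 in sonKD by the same split. Over the 8 genes the ratio of the high to the low group ran from 1.28 (Dhcr7) to 1.67 (Lss) in control, with intervals apart for 7, and from 1.29 (Insig1) to 1.63 (Dhcr7) in sonKD, with intervals apart for 3. No such split was made for other genes, so these counts have no share of all genes beside them. The r of each gene with the summed other 7 was highest for Hmgcs1 in control, 0.118, and for Idi1 in sonKD, 0.104. It was lowest in control for Dhcr7, 0.016, and in sonKD also for Dhcr7, 0.0291. In control 7 of the 8 values, and in sonKD 4, were above 0.0362 and 0.0445, the 95th percentiles of the r with the sum of the 8 over 5047 genes averaging 0.1 UMI or more per thinned cell. The comparison is not strictly alike. Insig1, Lss and Dhcr7 averaged less than 0.1 UMI per thinned cell, and each gene's own r was with a sum of 7 genes, not 8.

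Genes outside the 8 were ranked by their r with that sum. In control the highest were Cyp51 (0.123), Msmo1 (0.11) and Fdps (0.107), all enzymes of the same pathway. They were also among the 10 highest in sonKD, where Fdps was first with 0.119, Msmo1 had 0.092 and Cyp51 had 0.091. These 3 were the only ones of the 10 highest in sonKD that belonged to the lists of cholesterol enzymes or of SREBP control, which together made up 0.317% of the 5042 genes ranked. Also among the 10 highest in control were Hnrnpu (0.101), which encodes a nuclear RNA-binding protein, the chaperones Hspd1 (0.09), Hspa5 (0.087) and Hspa4 (0.085), the lamin gene Lmnb1 (0.08) and the fatty acid desaturase Scd2 (0.079). In sonKD these 6 had 0.051, 0.107, 0.063, 0.056, 0.076 and 0.083, in the same order. Srebf2 had 0.031 in control and 0.027 in sonKD. Abundant genes can reach a higher r in sparse counts than scarce ones, and Hspd1 stood at 2092 CPM in control where Cyp51 stood at 69.7.

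**Figure D4:**
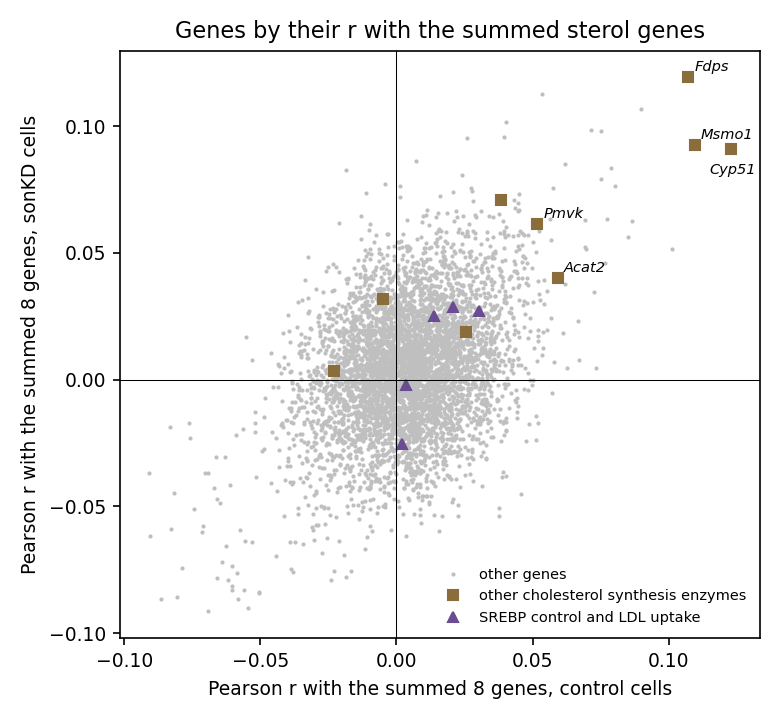
Pearson r of other genes with the summed 8 sterol genes over thinned cells, in control (x axis) and sonKD (y axis); squares are other cholesterol synthesis enzymes and triangles genes of SREBP control and LDL uptake. Fdps, Msmo1 and Cyp51 stand at the upper right, at 0.107 to 0.123 in control and 0.091 to 0.119 in sonKD.

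Cells were then divided in each library into tertiles by another measure, with ties kept together, and the summed level of the 8 genes was read in each. By the UMIs of the 15 other cholesterol enzymes, the 8 genes stood at 370 CPM (357 to 383) in the lowest tertile of control cells and 543 CPM (522 to 565) in the highest, a ratio of 1.47. In sonKD they stood at 305 (287 to 323) and 458 CPM (435 to 483), a ratio of 1.5. These were the largest ratios among the 16 measures in each library, but ties made the groups unequal in size. In control the highest group held 1174 cells by the other cholesterol enzymes, 519 by sterol export and esterification and 1570 by depth before thinning. The measures also differ in UMIs per cell, so their ratios are not strictly alike. By fatty acid synthesis genes the sum went from 401 to 501 CPM in control and from 341 to 417 in sonKD. By the genes of SREBP control and LDL uptake it went from 433 (417 to 449) to 476 CPM (453 to 500) in control, and in sonKD from 370 to 374 CPM with overlapping intervals.

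The summed level of the sterol genes was also higher in cells with more S phase transcripts. The sum stood at 401 CPM (387 to 416) in the lowest tertile of S phase UMIs in control and 486 (468 to 504) in the highest, and at 338 (321 to 357) and 432 CPM (409 to 455) in sonKD. Idi1 had the highest such ratio of the 8 in control, 1.44, from 100 to 144 CPM, and stood at 87.6 and 122 CPM in sonKD. The scarcer Dhcr7 had 16.0 and 14.2 CPM in control and 10.0 and 16.0 in sonKD. Insig1 had 16.2 and 18.9 CPM in control and 13.9 and 13.5 in sonKD. The other genes were higher in the highest tertile in both libraries, by as little as 8.07 against 8.17 CPM for Lss in sonKD. No intervals were made for these single genes. By G2/M genes the sum was 435 and 430 CPM in control and 362 and 380 in sonKD, with overlapping intervals. The mean r over pairs was nearly the same once the S phase and G2/M sums were regressed out, 0.0238 in control and 0.0224 in sonKD.

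**Figure D5:**
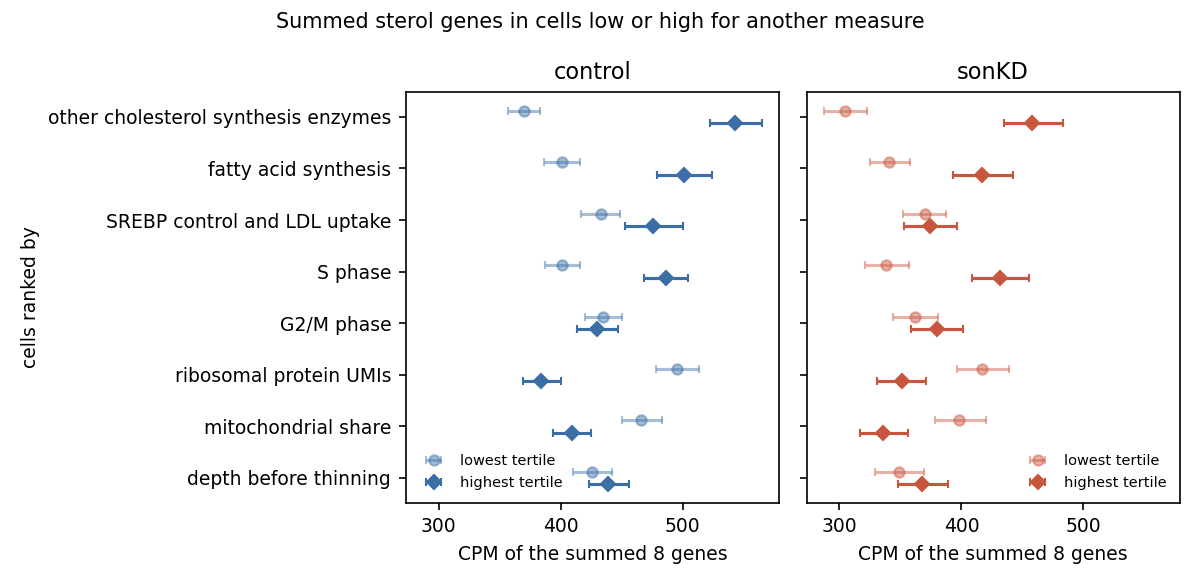
Summed level of the 8 sterol genes (CPM, exact 95% Poisson bars) in the tertile of thinned cells lowest (circles) and highest (diamonds) in each measure named on the left, for control and sonKD. The bars are farthest apart for the other cholesterol synthesis enzymes, at 370 and 543 CPM in control and 305 and 458 CPM in sonKD.

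In the opposite direction, the sum went from 495 CPM (478 to 513) to 384 (369 to 400) from the lowest to the highest tertile of ribosomal protein UMIs in control, and from 417 to 351 CPM in sonKD. With the mitochondrial share it went from 466 to 409 CPM in control and from 398 to 336 in sonKD. Both measures take part of the fixed number of UMIs of a thinned cell, and both were higher in sonKD; their part in the ratio between libraries is given above for a total without those genes. By the depth of the cell before thinning the sum was highest in the middle tertile. In control it was 426 CPM (410 to 442) in the lowest, 460 (444 to 477) in the middle and 439 (423 to 456) in the highest tertile, and in sonKD 349 (329 to 369), 402 (381 to 423) and 368 (348 to 389). The lowest and middle tertiles were apart in both libraries, and the lowest and highest overlapped. By Son UMIs within a library it was 429 CPM (416 to 442) in the lowest group and 449 (425 to 475) in the highest in control, and 365 (351 to 379) and 390 (368 to 412) in sonKD, again with overlapping intervals.

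The genes lie on 7 chromosomes, and each was placed by its identifier in GENCODE M21 on GRCm38. Dhcr7 spans chr7:143823145-143848410 on the plus strand with 9 exons, Sqle chr15:59315077-59331192 on the plus strand with 11 exons, and Insig1 chr5:28071363-28078662 on the plus strand with 5 exons. No annotated gene overlaps these 3. Hmgcs1 (chr13:119690379-119708260, plus strand), Idi1 (chr13:8885501-8892451, plus), Lss (chr10:76531588-76557138, plus), Fdft1 (chr14:63145150-63179578, minus) and Mvd (chr8:122433601-122443422, minus) each overlap a gene on the opposite strand. Whether the counting used strand is not given in the sources used here, and the reads of the partners were not examined. None of the 8 shared sequence of its 3′ end with another gene in exact runs of 31 bases.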

How the data were processed

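The values used were UMI counts, not normalized, as the authors deposited them for 1 control and 1 sonKD library; they were made with Cell Ranger 7.1.0, per the file headers, on mm10, per the submitters' processing notes. Which annotation was used, and whether reads in introns were counted, is not given in the sources used here. Counts were summed over cells, divided by the library's total in cells (CPM), and compared as ratios with exact 95% intervals (Poisson for levels, Clopper-Pearson for shares, conditional binomial for ratios); PCR copies are collapsed by UMI, and the intervals cover counting error only. A symbol with 2 rows took the row with more UMIs. Doublets were not looked for or removed, and free RNA was not subtracted. Alternatives left out the 5% of barcodes with the most UMIs or subtracted free RNA at an assumed 5%. Others changed the scaling (TMM from edgeR 4.0.16), cell limits, folds and thinning depths. Each of the 8 genes was described, with Son, the genes of the lists of other cholesterol enzymes and SREBP control at a mean of at least 10 CPM, 2 genes farthest from 0 of each other list, and the 10 genes of highest r with the summed 8 in control. Co-variation used cells thinned at random to 4000 UMIs. The split at 1 and 3 UMIs of the other 7 genes was chosen after seeing the data. The members and the lists were chosen with earlier results of these data known. Some genes of these lists are counted in them but not reported here. The scripts (Python 3.11.15, numpy 2.4.6, scipy 1.17.1, pandas 2.3.3, R 4.3.3) were tested on simulated data.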

Additional observations from a re-analysis of the deposited data

How the results depend on the processing

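The log2 ratio of the summed 8 genes was -0.219 on the CPM scale. It was -0.129 with TMM factors and -0.145 with a total free of mitochondrial and ribosomal protein genes. The median of the 8 ratios, -0.229, became -0.138 and -0.155 under the same 2 scalings. The median of all genes moved with it, from -0.12 to -0.03 and -0.04, so the median of the 8 stayed 0.11 lower than that of all genes in each case. Of all genes at or below 80% or at or above 125% of control, 74.4% were lower by CPM, 45.2% with TMM and 54.1% with the reduced total. The 3 sterol genes at or below 80% of control became 1 with TMM factors and 0 at a fold of 1.5, which 1.23% of all genes passed as lower and 0.992% as higher. With TMM factors Sqle (log2 ratio -0.321) and Insig1 (-0.307) lay just above the limit of 80%. Over 8 alternatives of scaling, cell limits, the barcodes with the most UMIs and free RNA, all 64 single-gene ratios were below 0. They ran from -0.56 to -0.01. The 64 ratios come from the same 8 genes and largely the same counts, so they are not independent results. In the same alternatives, between 56.6% (TMM factors) and 75.3% (a higher UMI minimum) of all genes were below 0. Of the 64 ratios, 6 left their counting interval, those of Hmgcs1, Fdft1 and Idi1 under the 2 scalings.

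The mean r over pairs rested on depth. Thinned to 2500 UMIs it was 0.0133 in control and 0.0151 in sonKD, and thinned to 8000 UMIs, with 2267 and 2296 cells, it was 0.0421 and 0.0494. No other alternative moved it by as much as 0.005. No paired analysis was possible because each group had 1 library. With 1 library a group, differences between cultures were not measured. The levels of Insig1, Lss and Dhcr7 rested on 325 to 671 UMIs per library.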

Other observations

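Other gene lists gave smaller or less even relations with the summed 8 sterol genes over thinned cells. By glycolysis genes the sum went from 334 CPM (315 to 353) in the lowest tertile of sonKD cells to 408 (387 to 431) in the highest, and in control from 435 (420 to 451) to 443 (426 to 460); the difference between the libraries in this relation was not tested. By stress response genes it went from 428 to 464 CPM in control and from 360 to 406 in sonKD, and by isoprenoid branch genes, which include Fdps and Ggps1, from 413 to 490 and from 355 to 411. By naive pluripotency genes it was 454 CPM (438 to 470) in the lowest and 422 (405 to 440) in the highest tertile of control cells, and 374 and 359 in sonKD. By formative and primed genes it was 438 and 440 CPM in control and 371 and 394 in sonKD, with overlapping intervals. By sterol export and esterification genes it was 444 and 424 CPM in control and 378 and 356 in sonKD, also overlapping.

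Between the libraries, the naive pluripotency genes had a median log2 ratio of -0.12 over 12 genes, the formative and primed genes -0.17 over 7, the stress response genes -0.12 over 9, the glycolysis genes -0.08 over 12, the S phase genes -0.18 over 19 and the G2/M genes -0.15 over 20, beside -0.12 for all genes.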
